A study of Mus musculus with 3 samples.

Results

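Replication-dependent histone genes of the mouse were examined for the 3′ ends of their polyadenylated RNA in embryonic stem (ES) cells. The members are all protein-coding GENCODE M21 genes on the autosomes whose symbol begins with Hist1h, Hist2h, Hist3h or Hist4, which gave 67 of 20807 genes. They lie in a Hist1 cluster of 54 genes on chromosome 13, a Hist2 cluster of 10 genes on chromosome 3, a pair of Hist3 genes on chromosome 11 and a single Hist4 gene on chromosome 6. By protein they are 6 H1, 18 H2A, 18 H2B, 12 H3 and 13 H4 genes. A site belonged to a member when it lay on the strand of the gene between its start and 1 kb past its annotated end. Under this rule 50 of the 67 members had a listed site and 17 had none.

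The study used PAS-seq, made with QuantSeq chemistry per the labels, a method in which each read marks the 3′ end of a polyadenylated RNA. The cells were F121-9, a hybrid mouse ES cell line from a cross of CAST and 129, and no treatment, gene change or second group is given in the labels. There were 3 libraries, named biological replicates 1, 2 and 3, each at passage 14 and from 500 ng of RNA. No separate cultures are named, so the spread between libraries, and every p-value based on it, may be partly technical.

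Replication-dependent histones package newly made DNA and their mRNAs accumulate in S phase. Their mRNAs are the main class of animal mRNAs that end without a poly(A) tail: cleavage falls a few bases past a conserved stem-loop that is bound by the protein SLBP, and the U7 snRNP guides it. Some of these genes also use ordinary polyadenylation signals further downstream, chiefly in differentiated cells, and short tails can be added to histone mRNAs during processing or decay.

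A stem-loop of 6 base pairs that opens with GG, closes with CC and has a loop of 4 bases was searched in the 200 bases past each stop codon. It was present in 65 of 67 members, against 226 of 20653 autosomal genes with an annotated stop codon, a count that includes these members. Hist2h2be and Hist1h2an were the members without one. The first base of the stem-loop lay 22 to 59 bases past the stop codon, with a median of 31. The following stretches, read 5′ to 3′ from the mm10 genome with the stem-loop in capitals and 14 bases after it in lower case, are from members that the results below turn on.

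Hist1h3c (chr13:23745033-23745062, minus strand): GGCTCTTTTAAGAGCCacctaagatgtcat

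Hist1h2ai (chr13:21716839-21716868, plus strand): GGCTCTTTTCAGAGCCactcactttctcca

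Hist1h2ag (chr13:22042469-22042498, minus strand): GGCTCTTTTCAGAGCCacctaacctttcct

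Hist1h4d (chr13:23581950-23581979, plus strand): GGCCCTTTTCAGGGCCactaccttctcact

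Hist1h1c (chr13:23739512-23739541, plus strand): GGCTCTTTTCAGAGCCaccactcccactta

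Hist2h2ac (chr3:96220404-96220433, minus strand): GGCTCTTTTTAGAGCCaccaaatcttttac

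Hist1h2bk (chr13:22036300-22036329, plus strand): GGCTCTTTTAAGAGCCactaaaccaccagt

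The 65 stem-loops had 8 different sequences. The one printed for Hist1h1c was shared by 41 members of the H1, H2A, H2B and H3 families, and the one of Hist1h3c and Hist1h2bk by 9. The one printed for Hist1h4d was found in 8 members, all of them H4 genes.

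Each library was deposited as a list of sites in RPM (reads scaled to the depth of the library), from which whole reads were recovered. The RPM denominators were 11085428, 14855484 and 14064461 reads in replicates 1, 2 and 3, and 9326090, 12500338 and 13040404 reads lay at autosomal sites. Replicate 3 had reads at 10 sites off the autosomes, against 3718 and 4567 such sites in replicates 1 and 2, and its RPM summed over autosomal sites was 927188, against 841292 and 841462. As a check of the cell label, 7 of 8 ES cell markers reached a mean of 10 RPM, among them Nanog at 724 and Sox2 at 611 RPM, while Dppa5a stayed at 0.314 RPM. Of 8 markers of fibroblast feeder cells, Thy1 (84.4 RPM) and Vim (71.6 RPM) reached that level and Postn and Dcn were at 0, and their summed level was 128, 129 and 223 RPM. No endoderm or mesoderm marker and 1 of 4 neuroectoderm markers (Tubb3, 36.3 RPM) reached it. The part of these other cell types in the values below was not tested.

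The first question is how much RNA of these genes the libraries held. All 67 members together had 99.7, 99.5 and 122.4 RPM in replicates 1, 2 and 3, a mean of 107 ± 13.2 (SD, n = 3), from 4305 reads at 105 sites. By comparison, 11 genes listed as replication-independent histones had 1811, 1972 and 1894 RPM, a mean of 1892 ± 80.4. Their mRNAs mostly have ordinary poly(A) tails, while H2afx is known to make a stem-loop mRNA as well. H2afz alone (566 RPM) exceeded the sum over all 67 members. Because each RNA gives a read at its 3′ end only, these levels do not depend on the length of the RNA. They count polyadenylated ends, and histone mRNA without a tail is not read by this method. In bulk RNA, fewer cells that hold an RNA and less of that RNA per cell cannot be told apart.

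The share of members with a listed site was close to that over all genes, but their levels were lower. A site was listed for 74.6% of members, against 74.7% of all autosomal protein-coding genes. A mean of at least 1 RPM was reached by 30 members (44.8%), against 58.6% of all genes. Only Hist1h1c (1.49% of the members) reached 10 RPM, against 37.4% of all genes. The median level was 0.682 RPM in the members, against 2.92 RPM over all genes.

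By family, the H2A genes had the highest summed level at 31.0, 26.8 and 37.7 RPM in replicates 1, 2 and 3. H2B genes summed to 16.2, 21.8 and 31.9 RPM, H3 genes to 14.9, 23.9 and 24.0 RPM, and H1 genes, the linker histones, to 15.5, 18.2 and 20.3 RPM. The H4 sum was 22.0, 11.04 and 10.1 RPM, so replicate 1 stood highest for H4 and lowest for H1, H2B and H3. The ranges of the H1, H2B, H3 and H4 sums overlapped, and the H2A range overlapped that of H2B only. Hist3h2a alone gave 10.9, 7.07 and 8.67 RPM of the H2A sum, all at sites that also lie in the window of Trim17. Without these sites the H2A sum would not be the highest in every library, and its range would overlap those of all other families. A site in the windows of an H2A and an H4 gene, and one in the windows of an H3 and an H2B gene, count for both families here.

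**Figure D1:**
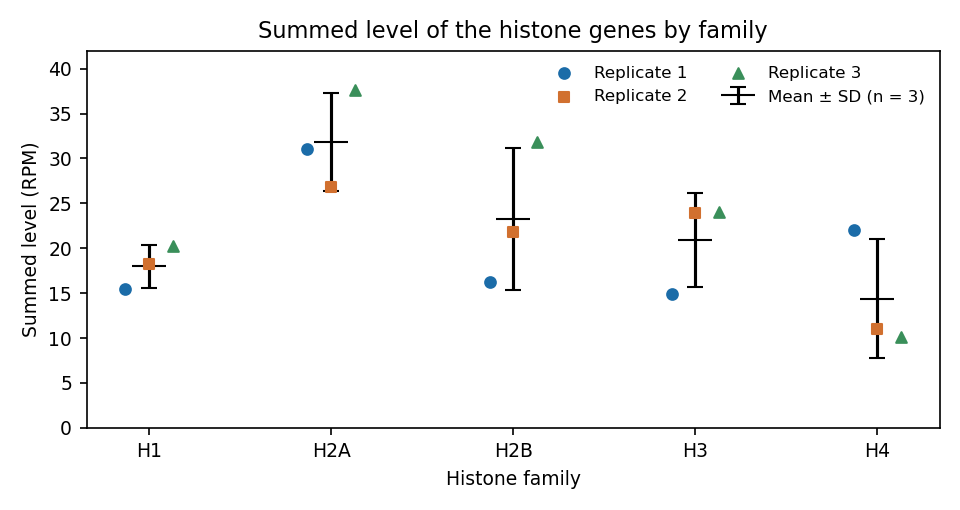
Summed level in RPM of the members of each histone family, with a point per library and the mean ± SD of 3 libraries. H2A genes had 26.8 to 37.7 RPM in the 3 libraries, and H4 genes had 10.1 to 22.0 RPM with replicate 1 apart from the others.

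A few genes held most of this signal. The 12 highest members had 65.1% of all member reads. Hist1h1c, which encodes a linker histone, had 7.58, 9.49 and 15.0 RPM (10.7 ± 3.85). Hist1h3c, an H3 gene, had 7.85, 9.02 and 11.6 RPM. Hist3h2a, an H2A gene, had 10.9, 7.07 and 8.67 RPM, all at sites that also lie in the window of Trim17. These 3 genes overlapped in range, so their order cannot be told from 3 libraries.

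The next members varied more between libraries. Hist1h2bk had 1.98, 12.3 and 7.61 RPM and Hist3h2ba had 6.68, 2.42 and 12.2 RPM, so that for both H2B genes the highest library was over 5 times the lowest. Hist2h2ac (3.97, 3.57 and 6.11 RPM), Hist1h2ag (6.22, 5.32 and 1.78 RPM) and Hist1h2ai (1.62, 2.63 and 8.11 RPM) are H2A genes. The 12 were completed by Hist1h4i (5.77, 1.62 and 3.20 RPM), Hist1h1d (3.61, 3.03 and 3.63 RPM), Hist1h4d (2.89, 2.56 and 4.41 RPM) and Hist1h2ae (1.80, 1.75 and 4.91 RPM). Neighbours in this order overlapped throughout, and no library was highest for all of them.

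**Figure D2:**
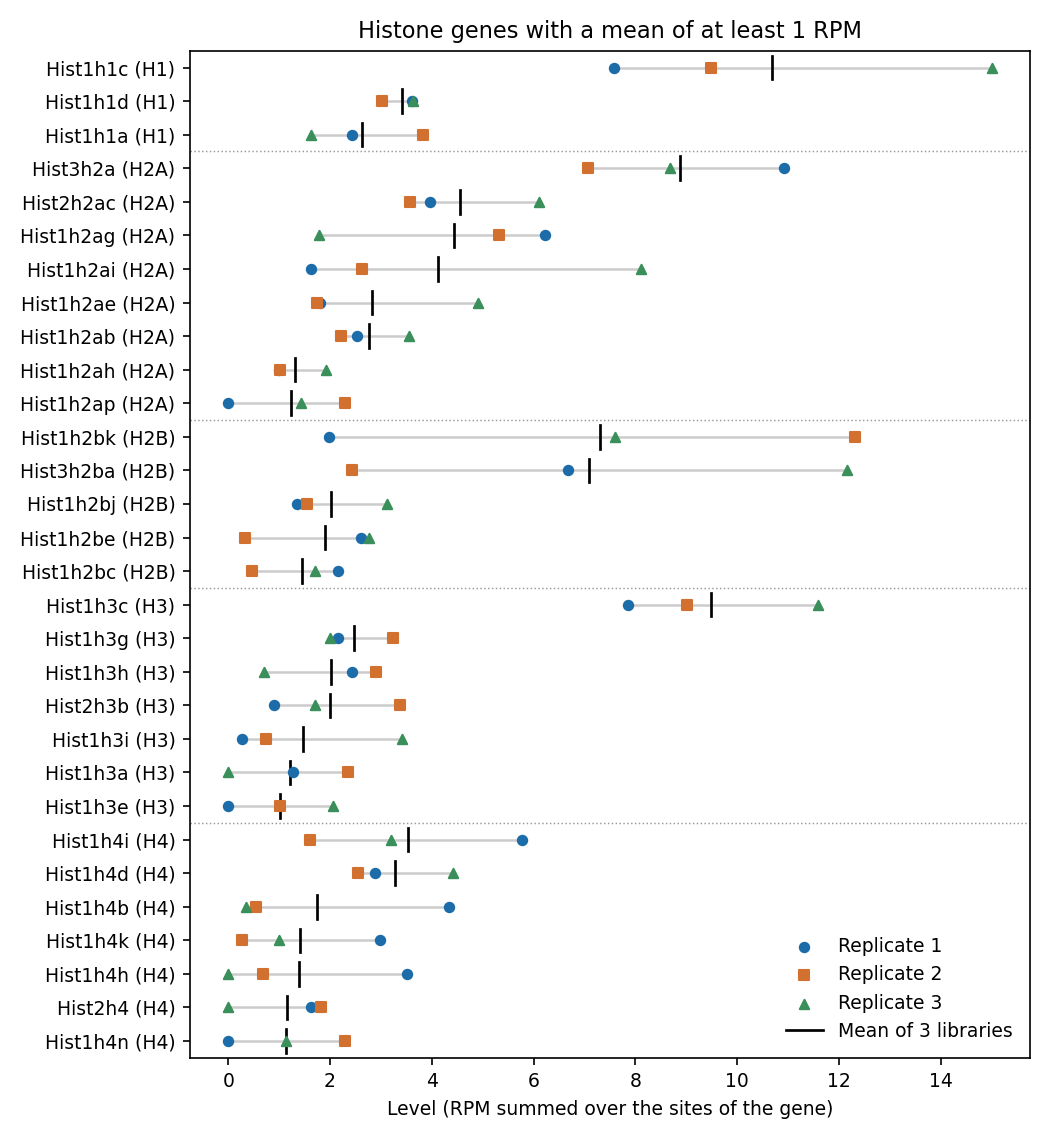
Level in RPM of the 30 members with a mean of at least 1 RPM, by family and falling mean, with a point per library and a black bar at the mean of 3 libraries. Hist1h1c, Hist1h3c and Hist3h2a lie at 7 RPM or above in every library, while Hist1h2bk and Hist3h2ba spread from about 2 to 12 RPM.

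Reads were recorded in every library for 25 members, in 2 libraries for 17 and in 1 library for 8. The 17 members with no listed site were Hist1h1t, Hist1h2aa, Hist1h2ac, Hist1h2af, Hist1h2ao, Hist1h2bf, Hist1h2bq, Hist1h2br, Hist1h3d, Hist1h4f, Hist1h4j, Hist1h4m, Hist2h2aa1, Hist2h2aa2, Hist2h2ab, Hist2h3c1 and Hist4h4. All 17 carry the stem-loop. Hist1h1t encodes the linker histone of the testis. By family the absent genes were 7 of 18 H2A, 4 of 13 H4, 3 of 18 H2B, 2 of 12 H3 and 1 of 6 H1.

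Some members cannot be told apart by short reads. The 50 bases that end with the stem-loop had more than 1 exact copy in the genome for 14 of the 65 members with a stem-loop. Of these 14, 7 had no listed site and the others held 204 reads at distinct sites. Of the 51 members with a single copy, 10 had no site and the others held 4065. How reads with several genomic matches were treated is not given in the sources used here, so the levels of the 14 are uncertain. They are Hist1h2ao, Hist1h2ap, Hist1h2bj, Hist1h2bm, Hist1h2bn, Hist1h2bp, Hist1h2bq, Hist1h2br, Hist1h4m, Hist1h4n, Hist2h2aa1, Hist2h2aa2, Hist2h3c1 and Hist2h3c2.

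The next question is where the polyadenylated RNA of these genes ended relative to the stem-loop. Each deposited site is a span of bases and was placed at the position in its name. The largest share of reads was at sites placed right past the stem-loop. Sites within 10 bases of the last base of the stem-loop held 42.3%, 49.9% and 39.0% of the member reads in replicates 1, 2 and 3, a mean of 43.7% ± 5.59. These were 33 sites, 1 in each of 33 members, with 1875 reads. By their named positions all of them lay 3 to 7 bases past the stem-loop. At exactly 4 bases were 22 of them, which held 71.3% of the reads at stem-loop ends. Some of the 33 sites have wide spans. Those of Hist1h1a (80 reads), Hist1h2ab (96), Hist1h2ae (44) and Hist1h1b (33) cover 36, 23, 25 and 18 bases. Reads at such sites are placed by the named position only. Sites of Hist1h2bk (282 reads), Hist2h2ac (183), Hist1h1c (110) and Hist1h2bp (14) were named outside these 10 bases while their spans reach into them, so that their reads cannot be placed exactly. With these sites the share was 51.04%, 66.2% and 53.5% (56.9% ± 8.11), a count added after seeing the data.

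In the stretches printed above, the site of Hist1h3c lies at the fourth lower-case base, as do those of Hist1h2ai and Hist1h2ag, and that of Hist1h4d at the third. All 384 reads of Hist1h3c, all 171 reads of Hist1h2ai and 98.8% of the 173 reads of Hist1h2ag ended there, as did 97.7% of the 132 reads of Hist1h4d. The site at the stem-loop end was the most-read site of 28 members. It held at least 90% of the reads in 19 members, and all of the reads in 12. No minimum of reads was set for these counts, and the 12 include Hist1h2bn and Hist1h4c with 2 reads each.

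The same position was nearly empty in other genes whose sequence met the search. The search set no bases for the loop, and whether these stem-loops work like those of the histone genes was not tested. In 161 autosomal protein-coding genes outside the set, sites within 10 bases of the stem-loop end held 30 of 212431 reads (0.0138% ± 0.00458 over the libraries). Of these, 21 were from H2afx, a histone variant gene that is known to make both stem-loop and polyadenylated mRNA, and they were 0.457% of its 4597 reads. Cox6b1 had 8 and Banf1 had 1.

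**Figure D3:**
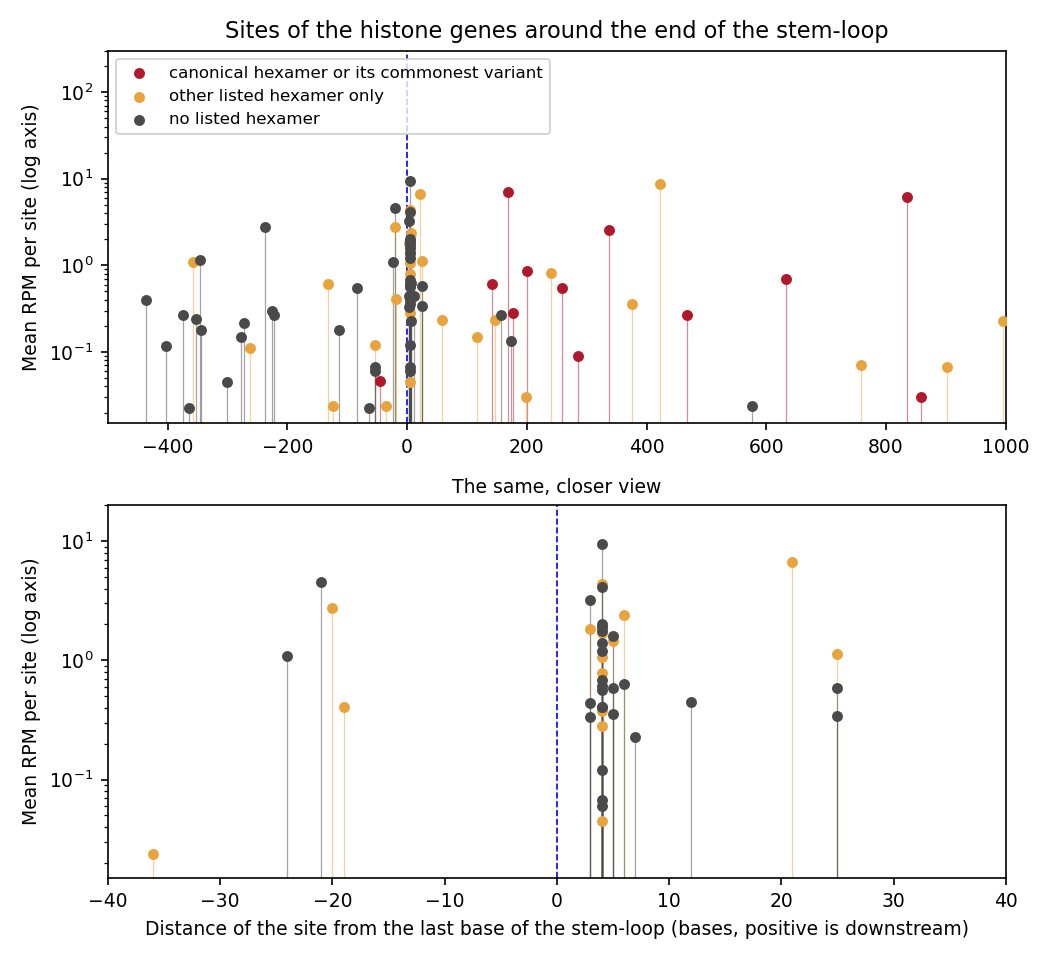
Mean level per site in RPM on a log axis against the distance in bases from the last base of the stem-loop, coloured by the deposited signal hexamer upstream (red AATAAA or ATTAAA, orange another listed hexamer, grey none), with a closer view below. Sites gather 3 to 7 bases past the stem-loop and none of these is red, while the red sites lie almost all further downstream. 11 sites fall outside the plotted range.

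A different set of ends lay far downstream. Sites over 25 bases past the stem-loop held 34.0%, 20.7% and 36.0% of reads, a mean of 30.2% ± 8.32, from 32 sites of 20 members. They include the sites of Hist3h2a (348 reads), which also lie in the window of Trim17. Sites upstream of the stem-loop end held 20.5%, 15.7% and 14.3% (16.9% ± 3.26). Sites 11 to 25 bases past it held 3.17%, 12.4% and 9.76% (8.44% ± 4.75), most of them reads of Hist1h2bk. These classes go by the named position, and the 4 sites whose spans reach the stem-loop end count upstream or 11 to 25 bases past it. The stem-loop end was the largest class in each of the 3 libraries.

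**Figure D4:**
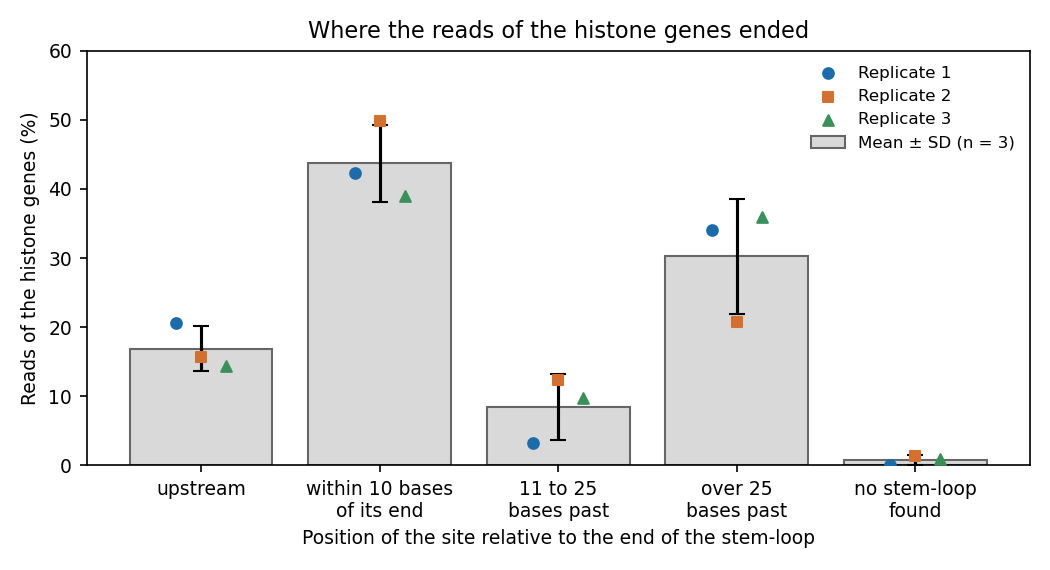
Percent of the member reads by the position of the site relative to the stem-loop end, with a point per library and bars for the mean ± SD of 3 libraries. The stem-loop end held 39.0% to 49.9% of reads and sites over 25 bases past it 20.7% to 36.0%, with replicate 2 apart from the others in both classes.

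Cleavage and polyadenylation of ordinary mRNAs follows a hexamer, AATAAA or ATTAAA in most genes, and the deposited lists give which of 18 such hexamers lie upstream of each site. At the stem-loop ends, 0 of 33 sites had AATAAA or ATTAAA and 10 had another listed hexamer, which was AACAAA at 8 of them. Of the reads more than 25 bases past the stem-loop, 97.1% were at a site with a listed hexamer and 63.1% at one with AATAAA or ATTAAA. Upstream of the stem-loop end 29.6% of reads were at a site with a listed hexamer. Some listed hexamers lie further from the site, as the AACAAA of Hist1h3b at -45 bases and the ACTAAA of Hist1h4b at -50 bases. In other stem-loop ends AACAAA lies just before the stem-loop. An example is these 30 bases that end at the site of Hist1h2ag, with the hexamer in capitals. The ends that follow lie downstream and end at their sites in the same way.

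Hist1h2ag, stem-loop end (chr13:22042479-22042508, minus strand): cgccAACAAAggctcttttcagagccacct

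Hist1h1c, 835 bases past the stem-loop (chr13:23740333-23740362, plus strand): tatgcttctAATAAAaagcgtttagttttc

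Hist3h2ba, 168 bases past it (chr11:58949503-58949532, plus strand): tattAATAAAtttggttcaattttggccac

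Hist3h2a, 422 bases past it (chr11:58955580-58955609, plus strand): aTATAAAtgttctgttacaaggcgatttac

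Hist1h4i, 337 bases past it (chr13:22040629-22040658, minus strand): acATTAAAagtattctatgctaaccaatgg

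Hist1h2bk, 21 bases past it (chr13:22036307-22036336, plus strand): ttaagagccACTAAAccaccagtattagag

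Over all members, 55.4%, 53.8% and 58.2% of reads were at a site with a listed hexamer (55.8% ± 2.26), against 95.7% ± 0.186 for all autosomal protein-coding genes. AATAAA or ATTAAA preceded 18.8% ± 7.50 of the member reads, against 84.4% ± 0.266 of the reads of all genes. In each library the members' value lay below that of all genes, and the values do not overlap. Sites followed by A-rich genomic sequence, where the primer can bind inside an RNA, held 2.04% ± 0.378 of member reads and 1.51% ± 0.129 of the reads of all genes.

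**Figure D5:**
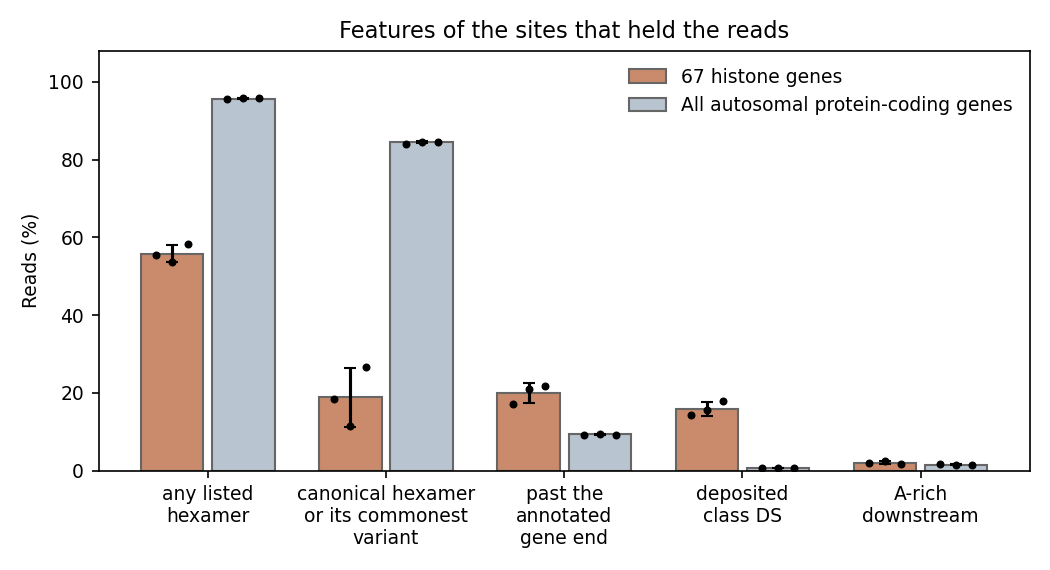
Percent of reads at sites with each feature for the 67 members and for all autosomal protein-coding genes, with a dot per library and bars for the mean ± SD of 3 libraries. The members had 55.8% of reads at a listed hexamer against 95.7% for all genes, and 20.0% against 9.35% past the annotated gene end, while the A-rich shares were 2.04% and 1.51%.

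To test this per gene, RPM at sites with a listed hexamer was set against RPM at sites without one in the same library, with limma over the 13099 genes whose mean reached 0.5 RPM. Calls needed a ratio of 2-fold or more and a p below 0.05 after Benjamini-Hochberg adjustment. Of 38 members tested, 9 (23.7%) had more reads without a hexamer, against 1.79% of all genes, and 10 (26.3%) had more reads with one, against 78.8% of all genes. The median log2 ratio of reads with over without a hexamer was -1.39 in the members and 5.15 over all genes. With 0.05 RPM added to each part, a low level limits the size of the ratio and how readily a gene is called. The median level of genes with a site was 1.27 RPM in the members and 10.01 RPM over all genes. The other 29 of the 67 members fell below the level filter or had no site.

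The 9 members with more reads at sites without a hexamer were Hist1h3c, Hist2h2ac, Hist1h2ai, Hist1h4d, Hist1h2bj, Hist2h3b, Hist1h3h, Hist1h4k and Hist1h1d. In all of these but Hist1h1d, no read in any library was at a site with a hexamer. Adjusted p was 0.000248 for Hist1h3c, 0.000593 for Hist2h2ac and 0.000948 for Hist1h4d. In Hist1h1d 6.14% ± 5.90 of reads had one (adjusted p = 0.0103). The most-read site lay at the stem-loop end in Hist1h3c, Hist1h2ai, Hist1h4d, Hist1h2bj, Hist2h3b and Hist1h3h, and by its named position upstream of it in Hist2h2ac, Hist1h4k and Hist1h1d.

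The 10 members with more reads at a hexamer were Hist3h2a, Hist1h2ag, Hist3h2ba, Hist1h2ab, Hist1h2ae, Hist1h2bk, Hist1h4i, Hist1h3i, Hist1h4b and Hist1h1c. In Hist1h2ag, Hist1h2ab, Hist1h3i and Hist1h4b the most-read site was nevertheless at the stem-loop end. The first 3 had AACAAA listed at -26 or -28 bases from that site. Hist1h4b had only ACTAAA there, listed further upstream at -50 bases. Hist3h2a (adjusted p = 0.000266), Hist3h2ba (0.00293) and Hist1h4i (0.00446) ended mostly far downstream. Without a single library the calls of Hist1h1c (adjusted p = 0.0504 without replicate 2 and 0.0504 without replicate 3), Hist1h1d (0.0543 without replicate 1 and 0.0639 without replicate 2), Hist1h3i (0.0665) and Hist1h4b (0.0532) without replicate 2, and Hist1h4k (0.0518) without replicate 3, were lost, all with the direction kept. The edgeR quasi-likelihood test on recovered reads called 8 members with more reads at a hexamer and 7 with more without one. It did not call Hist1h1d (adjusted p = 0.0525), Hist1h3i (0.0593), Hist1h4k (0.0612) or Hist1h4b (0.0665), with the same direction in each.

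The H1 genes show how the ends of one family differ. Hist1h1c had 8 sites, none of them named at its stem-loop end. Its main site, with AATAAA, lay 835 bases past the stem-loop and 5 bases before the annotated gene end, with 3.43, 4.71 and 10.2 RPM. A site named 20 bases before the last base of the stem-loop had 2.71, 2.36 and 3.20 RPM, and its span runs from 49 bases before that base to 11 past it. In all, 60.8% of the 436 reads lay over 25 bases past the stem-loop and 34.2% at sites named upstream of its end, and both kinds of end were present in every library.

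Hist1h1d encodes another linker histone. Its most-read site lay 190 bases before the end of the stop codon, inside the coding sequence, with 3.61, 1.41 and 3.20 RPM and no listed hexamer, and 78.7% of its 136 reads ended upstream of the stem-loop end. Hist1h1a had 2.44, 3.84 and 1.64 RPM, with 74.8% of 107 reads at a site named 3 bases past the stem-loop, whose span covers 36 bases. There replicate 1 had no read, against 3.84 and 1.64 RPM in replicates 2 and 3. Hist1h1b had 0.992, 1.82 and 0 RPM, with 86.8% of 38 reads at the stem-loop end. Hist1h1e had 11 reads in all, none at the stem-loop end, and Hist1h1t had no site.

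In Hist2h2ac all 183 reads fell on 1 site, named 21 bases before the last base of the stem-loop, with no listed hexamer. Its span runs from there to 3 bases past the stem-loop. The genome reads on with A at the named position, as it does at the upstream site of Hist1h1c. The stretches below give the 15 bases up to the named position in lower case and the 15 bases past it in capitals.

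Hist2h2ac (chr3:96220424-96220453, minus strand): actcaacacgaatccAAAAAGGCTCTTTTT

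Hist1h1c (chr13:23739493-23739522, plus strand): ctcccctaacaatccAAAAGGCTCTTTTCA

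The site of Hist2h2ac is followed by 5 A and that of Hist1h1c by 4 A, right before the GG that opens the stem-loop. Neither was counted as A-rich above, and binding of the primer at these A was not tested. No autosomal site in the lists was followed by a run of more than 5 A. The stem-loop ends too were often followed by A: 26 of 33 (78.8%), against 49.6% of all 171741 autosomal sites. The other member sites also lay above that share. It was 59.4% upstream of the stem-loop end, 80% at 11 to 25 bases past it and 62.5% further downstream. Where the genome goes on with A, the last base of the RNA and the first of its tail cannot be told apart, so that the true end may lie a base or more downstream.

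In the core histone families, the H2A gene Hist3h2a had no stem-loop end and 338 of 348 reads 422 bases past the stem-loop, with TATAAA upstream. Both of its sites also lie in the window of Trim17, and without such sites it had no reads. For Hist1h2ae, 38.3% of 115 reads were at the stem-loop end and 20.0% over 25 bases past. Its site 25 bases past the stem-loop had 3.41 RPM in replicate 3 and 0 in the others. Hist1h2ah, with 0.992, 1.01 and 1.92 RPM, had 45.3% of 53 reads at the stem-loop end and 54.7% at a site 633 bases past it.

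Among the H2B genes, Hist3h2ba had 98.6% of 281 reads at the site with AATAAA, 1 base before the annotated gene end. Hist1h2bk had no site named at the stem-loop end. Its main site, named 21 bases past it with a span that begins 8 bases before its last base, had 1.98, 10.3 and 7.61 RPM, and its hexamer ACTAAA begins with the first base after the stem-loop. Hist1h2be had 93.2% of 73 reads over 25 bases past the stem-loop, at a site 1790 bases past it in replicate 3 and one 201 bases past it in replicate 1. Hist1h2bc had 29.1% of 55 reads at the stem-loop end and 70.9% further downstream.

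The H3 genes had the highest share of reads at the stem-loop end of all families, with 94.5%, 88.2% and 87.3% in replicates 1, 2 and 3 (90.0% ± 3.96), and 384 of these 764 reads were from Hist1h3c. H4 genes had 51.0% ± 6.63 of reads there and H2A genes 43.4% ± 7.12, against 17.4% ± 6.72 in H2B genes and 14.2% ± 14.7 in H1 genes. The H3 values lay above those of every other family in each library, also when sites whose spans reach the stem-loop end were counted, which gave 57.5% ± 5.37 in H2A, 46.3% ± 23.8 in H2B and 29.6% ± 12.5 in H1 genes. Hist1h3h (2.44, 2.89 and 0.711 RPM), Hist1h4h (3.52, 0.673 and 0 RPM) and Hist1h3a (1.26, 2.36 and 0 RPM) had all their reads there. Hist1h4b had 4.33, 0.539 and 0.356 RPM, with 96.7% of 61 reads at the stem-loop end, and replicate 1 far above the others. Hist1h4i was different, with 95.5% of 133 reads over 25 bases past the stem-loop. In Hist1h4k 72.5% of 51 reads lay upstream of the stem-loop end and 27.5% at it, in different libraries.

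The annotated gene ends lie at different places relative to the stem-loop. In 16 of 65 members with a stem-loop the gene model stops before the end of the stem-loop, and in 12 it stops at the stop codon. Reads past the annotated end made up 17.1%, 21.04% and 21.8% of the member reads (20.0% ± 2.53), against 9.35% ± 0.133 of the reads of all genes. Of the 33 sites at stem-loop ends, 11 lay past the annotated gene end, with 577 reads. The deposited region code DS, whose meaning the files do not give, stood at 15.9% ± 1.82 of member reads and 0.717% ± 0.00878 of the reads of all genes.

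RPM past the annotated end was set against RPM inside the gene in each library, with the same test. Among 38 members, 6 (15.8%) had more reads past the end, against 6.2% of all 13099 genes, and 14 (36.8%) had more inside the gene, against 81.2%. The median log2 ratio was -3.06 in the members and -7.14 over all genes. The lower levels of the members limit these ratios and calls too, and how much they add to the gaps was not tested. The 6 were Hist1h2ai (1.62, 2.63 and 8.11 RPM past the end, adjusted p = 0.00113), Hist2h3b (0.902, 3.37 and 1.71 RPM, 0.00201), Hist1h3h (0.00247), Hist1h2ah (0.0029), Hist1h4k (0.0115) and Hist1h3i (0.0134). None of the 6 had a read inside the gene in any library.

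In all 6 the gene model stops before the stem-loop end and a site lies there. It was the most-read site of Hist1h2ai, Hist2h3b, Hist1h3h and Hist1h3i. The 14 with more reads inside the gene were Hist1h1c, Hist1h3c, Hist3h2a, Hist3h2ba, Hist1h2bk, Hist2h2ac, Hist1h2ag, Hist1h1d, Hist1h4d, Hist1h2ae, Hist1h2bj, Hist1h2be, Hist1h4b and Hist1h2ab. With the edgeR quasi-likelihood test on recovered reads 1 member (Hist1h2ai) had more reads past the end and 8 more inside. Without replicate 1 the first count was 11. The calls of Hist1h2ab with replicate 1, 2 or 3 left out (adjusted p = 0.0866, 0.0703 and 0.0811), of Hist1h3i (0.0643) and Hist1h4b (0.0549) without replicate 2, and of Hist1h4k (0.0585) without replicate 3 were lost.

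Tandem sites were compared by taking, among sites that held 5% or more of the reads of a gene, the one furthest downstream over the one furthest upstream. Of 21 members with such a pair, 1 (4.76%) had a higher distal site, against 23.9% of 7834 genes, and 0 had a higher proximal site, against 9% of all genes. On the log2 scale the median ratio of the distal to the proximal site was -0.34 in the members and 1.25 over all genes. Here too the lower levels of the members limit the ratios and the calls. The 1 called was Hist1h2bk, with 1.98, 10.3 and 7.61 RPM at the site 21 bases past the stem-loop and 0, 1.21 and 0 RPM at one 19 bases before its last base (adjusted p = 0.022). By limma, 4 of the 21 had an unadjusted p under 0.05, against 3508 of the 7834 genes. In edgeR 1 member was called distal and 0 proximal, and the edgeR counts over all genes are not given here. The call of Hist1h2bk was lost with any 1 library left out (adjusted p = 0.0979, 0.13 and 0.103 without replicates 1, 2 and 3), where 0 members were called.

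Fewer of the reads of these genes were at sites that recurred in every library. Of 105 sites, 22 had reads in all 3 libraries, 26 in 2 and 57 in 1. The 22 held 71.9% of member reads, against 97.6% held by such sites over all autosomal protein-coding genes. How much the lower levels of the members add to this gap was not tested. Among stem-loop ends 13 of 33 had reads in all 3. Sites near the limit of 1 kb past the gene end were thinly read. Just inside were sites of Hist1h3i (898 bases past the end, 0.0902, 0 and 0 RPM) and Hist1h2bp (922 bases, 0.902, 0 and 0 RPM). Just outside were sites 1057 bases past Hist1h3a (0.902, 1.14 and 0 RPM) and 1150 bases past Hist1h2ag (0.541, 0 and 0 RPM). These 2 are the stem-loop end of Hist1h4a and a site inside Hist1h4i, and are already counted for those members.

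Genes that act on these mRNAs were measured alongside. Of 21 listed genes for the transcription, 3′ end processing and decay of replication-dependent histone mRNAs, 20 are on autosomes and 19 reached 10 RPM. Slbp, whose protein binds the stem-loop, had 23.1, 17.5 and 27.4 RPM. Lsm10 and Lsm11, subunits of the U7 snRNP, had 48.2 ± 8.95 and 22.0 ± 5.12 RPM. Cpsf3, the endonuclease of both kinds of 3′ end, had 200 ± 22.5 RPM, and Npat, the transcriptional activator of histone genes, had 15.1 ± 1.75 RPM. Eri1, the exonuclease that trims the stem-loop end, had 50.5 ± 3.12 RPM and Upf1, a helicase of histone mRNA decay, 250 ± 33.6 RPM.

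Their own ends were put to the same tests. Of the 20, 19 had more reads with a listed hexamer and 0 more without, and 17 had more reads inside the gene and 2 (Upf1 and Cdk2) more past its end. Of 12 with tandem sites, 4 had a higher distal and 1 a higher proximal site. Of the 11 replication-independent histone genes, 9 had more reads with a hexamer and 0 more without, and 10 had more inside the gene. H2afz had 100% of its 22640 reads at a site with a hexamer. H3f3a, at 6.50, 3.50 and 9.39 RPM and in the range of the higher members, had 76.2% ± 10.8 there.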

How the data were processed

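PAS-seq libraries (3) of F121-9 cells were analysed. The authors deposited a list of sites per library, with RPM per site (reads scaled to library depth, a unit read from the values since the lists have no header), a region code and signal hexamers. Sites are on mm10 with GENCODE M21, per the file headers. The aligner, site caller, filters, and the treatment of multi-mapping reads and of the parental alleles are not stated in the sources used here. Whole reads were recovered from the RPM steps, with 100% of values whole within 0.01 reads. No molecular identifiers are given, so counts cover counting error only.

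Gene level was the RPM summed over sites in the window. Sites were placed at the position in their name. Stem-loops and sequences came from GRCm38, where all 181936 deposited hexamers were found at their place. A-rich means that the next 20 bases hold 12 or more A, or 6 in a row. Ratios within a library, log2(RPM + 0.05), were tested in limma 3.58.1 (R 4.3.3). The prior variance followed the level of the gene, as simulated data gave no calls without this. Ratios understate differences of rarely used parts. edgeR 4.0.16 on recovered reads was the main alternative, and others are named in the closing section. Named are the 12 highest members, those called in a test, and the H1 genes. The members, lists and tests were chosen with earlier results of these data known. Python 3.11.15, pandas 2.3.3 and numpy 2.4.6 were used.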

Additional observations from a re-analysis of the deposited data

How the results depend on the processing

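The series has a single group, so no samples pair between groups, and every test compares parts of a gene within a library. Leaving out 1 library at a time gave 46 to 48 members with a site, summed levels of 99.6 to 111 RPM, 54.6% to 56.8% of reads at a hexamer, 40.6% to 46.1% at the stem-loop end and 19.1% to 21.4% past the gene end. With a read required in every library 25 members remained. The summed level was 85.6 RPM with the window to the gene end only and 123 RPM when scaled to autosomal reads. The share at a hexamer was 58.4% with that shorter window, 52.4% without sites shared with another gene and 52.1% with hexamers searched in the 40 bases upstream. The stem-loop end held 60.4% of reads within 25 bases and 56.9% with sites whose spans reach it, an alternative added after seeing the data, and 22.6% lay past the gene end with a 5 kb window. The causes were not tested.

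Without 1 library, 5 to 11 members had more reads past the end and 12 to 17 more inside the gene. With a hexamer 8 to 12 members had more, without one 8 to 11, and 0 to 0 had a higher distal site. For all genes the counts were 715 to 800 past the end and 10177 to 10515 inside. They were 9029 to 9654 with and 194 to 218 without a hexamer. The edgeR counts over all genes are not given here, so calls lost in edgeR cannot be set against them. Members with more reads past the end numbered 2 at a minimum of 2 RPM and 1 in edgeR, which had 8 members with more inside. A higher distal site was called in 2 members with a pseudocount of 0.2 RPM, 3 with 0.5 RPM, 2 at a minimum of 2 RPM, 5 with sites of at least 1% of reads and 0 with 10%, and a higher proximal site in 2 with 1%. Counts over all genes with those pseudocounts, at that minimum in either test, and for proximal sites at 1% are not given here. Those member counts therefore cannot be set against a background. Over all genes, 3865 and 889 distal sites were higher at 1% and 10%, with 448 proximal at 10%, 710 to 1261 distal and 322 to 494 proximal without 1 library, and 0 of either without the variance trend, an alternative added after seeing the data. Over the alternatives, the calls of single members were kept 397 times and lost 32 times, and none turned its direction.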
